A study of Homo sapiens with 4 samples.

Results

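The effect of adding a Bcl-2 hairpin to c-Myc knockdown was described in MOLM-13 cells, a line with monocytic features that was established from an acute myeloid leukaemia and carries a KMT2A fusion. RNA-seq read counts of the library with hairpins against both genes (the double knockdown, labelled sh-c-Myc_sh-Bcl2) were compared with those of a library that carried only the c-Myc hairpin (sh-c-Myc). Of 24940 genes in the table, the 13362 that reached at least 1 CPM (counts scaled to a common library total) in either of these libraries are described. That choice used level alone, but near 1 CPM a gene can enter only because it is high in 1 of these libraries. The strongest gene left out, CDH3, reached 0.962 CPM, and the weakest kept, WDR54, reached 1.02 CPM. All cells were infected with lentivirus, selected with puromycin or G418 and induced with doxycycline, so the libraries share the infection and the drug. The labels do not say which antibiotic each library received, or whether the double knockdown received both. The series holds 1 library in each of 4 groups, namely the double knockdown, sh-c-Myc, the Bcl-2 hairpin alone (sh-Bcl2) and a control hairpin (shControl). The sh-Bcl2 and shControl libraries, which the comparison did not use, are given beside the main results as a second pair that differs by the same hairpin. The study asked how losing both genes alters the cells, and their mitochondria in particular, compared with losing 1 of them.

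BCL-2 is an anti-apoptotic protein of the outer mitochondrial membrane that binds the pore formers BAX and BAK and the BH3-only proteins that activate them. Myeloid leukaemia cells often depend on it, and the drug venetoclax occupies its BH3-binding groove. c-Myc is a transcription factor that drives cell division genes, the making of ribosomes and the synthesis of nucleotides. BCL-2 itself is not a transcription factor, so RNA changes after its loss are indirect.

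The libraries held 15494138 counts (double knockdown), 14421558 (sh-c-Myc), 15691129 (sh-Bcl2) and 14825763 (shControl). Genes with at least 1 count numbered 20318 in the double knockdown and 21426 in sh-c-Myc. Levels below are CPM scaled by TMM, a factor that corrects for differences in library make-up, and log2 ratios are double knockdown over sh-c-Myc unless the other pair is named. With 1 library per group, the differences have no replicate check and no p-value; bracketed ranges are 95% intervals of the counting error alone. A gene was called by size alone, when its scaled counts stood at least 2-fold apart and the interval left out equality.

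The targeted gene was lower where its hairpin was present. BCL2 (ENSG00000171791, chromosome 18, 63123346 to 63320128 on GRCh38) had 44.5 CPM in the double knockdown and 112 CPM in sh-c-Myc, and in the second pair 38.7 CPM in sh-Bcl2 and 119.7 CPM in shControl. The level was 2.50-fold lower in the double knockdown [2.29 to 2.74] and 3.09-fold lower in sh-Bcl2 [2.81 to 3.40]. Both libraries with the Bcl-2 hairpin were thus low and both without it high, with no overlap of the counting intervals. MYC RNA, the target of the hairpin that both compared libraries carry, had 302 CPM in the double knockdown and 278 CPM in sh-c-Myc, beside 364 CPM in sh-Bcl2 and 434 CPM in shControl. Its log2 ratio was 0.12 [0.06 to 0.18], a small difference beside those between either library and shControl. Protein was not analysed here.

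Over all 13362 genes, 857 were called (6.41%), of which 222 were called higher (1.66%) and 635 lower (4.75%) in the double knockdown. That split depended on level. Among 9230 genes with at least 10 CPM in either library, 80 were higher (0.867%) and 45 lower (0.488%), so that 64.0% of the calls were higher there, against 25.9% over all genes. Scaled by total counts instead of TMM, 153 genes were higher and 808 lower over all genes (15.9% higher). Of 1761 genes with a mean below 2 CPM, 404 were lower (22.9%), and of 4388 genes at 50 CPM or more, 9 were lower (0.205%). Many genes of low mean that differ 2-fold pass the filter only through the library in which they are high. The shares called below 2 CPM therefore depend in part on the filter.

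Gene class moved with the lower calls. Of 1485 long noncoding genes 278 were lower (18.7%) and of 565 pseudogenes 62 (11.0%), against 294 of 11305 protein-coding genes (2.6%). Long noncoding genes took 1.07% of counts in the double knockdown and 1.37% in sh-c-Myc, beside 0.928% in sh-Bcl2 and 0.925% in shControl. GC content moved with the ratio as well. Across the 10879 genes that averaged 50 counts or more, Spearman's rho of the log2 ratio on exonic GC content was -0.32, and in the second pair it was -0.35 over 10497 genes; genes are not independent replicates. The gene classes were not matched for level, and the part of level, library make-up and GC content in the calls was not tested. The median log2 ratio of all genes was 0.03, and scaling by total counts would shift every log2 ratio by -0.0998, so no direction is given for lists whose median lies within 0.1 of 0.

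**Figure D1:**
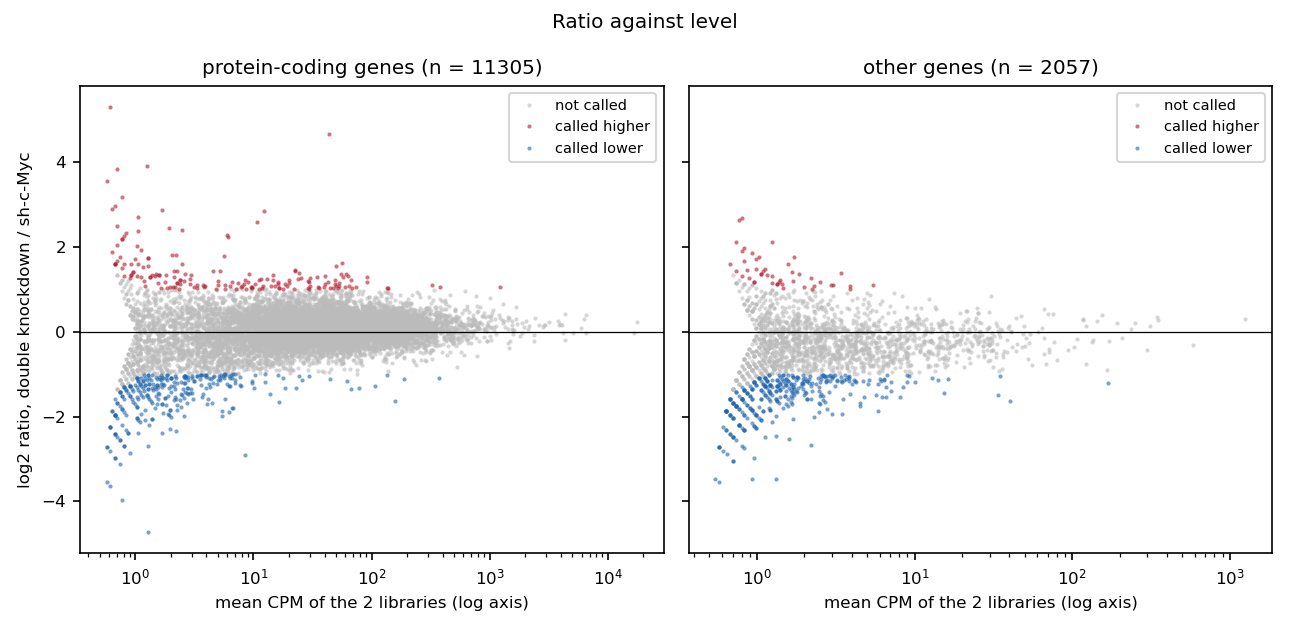
Log2 ratio of the double knockdown over sh-c-Myc (vertical axis) against the mean CPM of both libraries (horizontal log axis), 1 point per gene, protein-coding genes on the left and all others on the right; red points were called higher and blue points lower. Most of the 635 lower calls lie below 10 CPM, while the 80 higher calls at 10 CPM or more are all in the left panel.

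The calls at 10 CPM or more held a few recognisable groups. All 80 higher genes were protein-coding, and 21 of them belong to lists of DNA replication and G1/S or mitosis and G2/M genes. Of the 45 lower genes 30 were protein-coding and 14 long noncoding, and 0 were in those cell cycle lists. Immediate early and inflammatory genes were among the higher calls, and amino acid stress response genes among the lower ones.

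**Figure D2:**
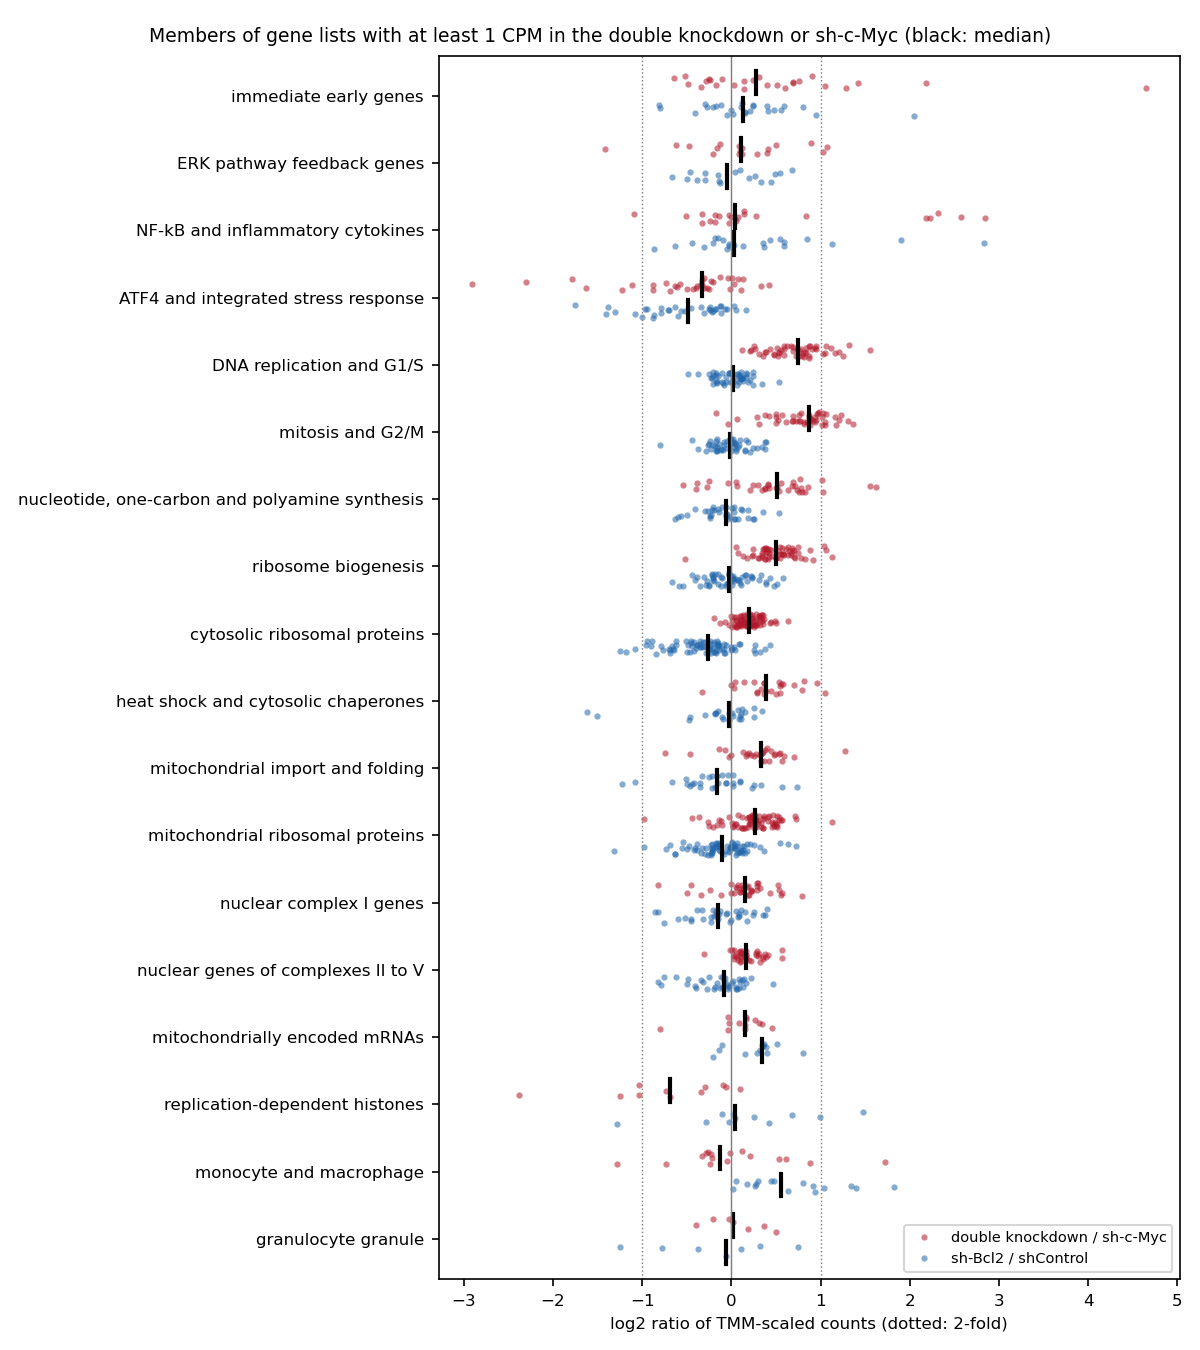
Log2 ratios of the members of 18 gene lists that reached 1 CPM in the double knockdown or sh-c-Myc, in the double knockdown over sh-c-Myc (red) and in sh-Bcl2 over shControl (blue), 1 point per gene, with a black bar at each median and dotted lines at 2-fold. The cell cycle lists lie right of 0 in red and around 0 in blue, with medians of 0.75 and 0.02 for DNA replication and G1/S, while the ATF4 list lies left of 0 in both colours.

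The promoters of 6 genes that the results below turn on are shown with the DNA motifs that regulators of their groups are known to bind. Sequences are RefSeq promoters of GRCh38.p14, from 250 bases before to 50 bases after the transcription start, on the gene's strand. Capitals mark a CArG box (bound by serum response factor) in EGR1, TGATGNAA or its complement (the element that ATF4 binds with a C/EBP partner) in CHAC1 and ASNS, CCAAT (bound by NF-Y) and TTTGAA (the cell cycle homology region of late cell cycle genes) or their complements in CDC20 and CCNB1, and TTTGGCGC (bound by E2F factors) in CDC6.
EGR1, chr5:138465229-138465528, plus strand: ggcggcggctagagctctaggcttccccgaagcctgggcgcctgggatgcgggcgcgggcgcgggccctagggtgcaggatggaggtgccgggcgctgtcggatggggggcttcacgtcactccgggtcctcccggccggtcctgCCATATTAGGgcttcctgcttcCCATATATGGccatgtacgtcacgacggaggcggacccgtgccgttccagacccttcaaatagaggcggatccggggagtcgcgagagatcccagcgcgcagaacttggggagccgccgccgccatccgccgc
CHAC1, chr15:40953221-40953520, plus strand: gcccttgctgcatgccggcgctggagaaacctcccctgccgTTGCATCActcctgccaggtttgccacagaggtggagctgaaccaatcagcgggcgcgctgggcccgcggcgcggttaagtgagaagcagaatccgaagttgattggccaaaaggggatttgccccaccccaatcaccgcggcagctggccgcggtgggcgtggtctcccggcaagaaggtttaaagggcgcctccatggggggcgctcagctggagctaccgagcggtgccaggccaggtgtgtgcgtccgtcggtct
ASNS, chr7:97872359-97872658, minus strand: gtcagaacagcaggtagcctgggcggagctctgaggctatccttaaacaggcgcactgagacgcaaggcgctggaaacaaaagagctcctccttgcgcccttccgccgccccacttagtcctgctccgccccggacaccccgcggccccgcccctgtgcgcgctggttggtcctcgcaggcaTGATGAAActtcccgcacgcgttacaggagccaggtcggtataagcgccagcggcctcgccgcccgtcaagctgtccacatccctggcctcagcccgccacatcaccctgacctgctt
CDC20, chr1:43358731-43359030, plus strand: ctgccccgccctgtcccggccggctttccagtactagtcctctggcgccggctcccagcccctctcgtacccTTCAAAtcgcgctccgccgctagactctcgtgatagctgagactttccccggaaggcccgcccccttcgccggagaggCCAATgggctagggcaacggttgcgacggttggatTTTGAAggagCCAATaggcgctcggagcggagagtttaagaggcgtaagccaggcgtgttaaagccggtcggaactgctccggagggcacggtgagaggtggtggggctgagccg
CCNB1, chr5:69166900-69167199, plus strand: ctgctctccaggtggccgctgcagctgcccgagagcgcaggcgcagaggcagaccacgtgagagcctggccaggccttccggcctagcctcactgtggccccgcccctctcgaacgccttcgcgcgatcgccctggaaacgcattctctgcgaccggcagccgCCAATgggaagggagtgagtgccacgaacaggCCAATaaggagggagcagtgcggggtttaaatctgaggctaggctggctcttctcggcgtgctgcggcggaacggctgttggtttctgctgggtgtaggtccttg
CDC6, chr17:40287629-40287928, plus strand: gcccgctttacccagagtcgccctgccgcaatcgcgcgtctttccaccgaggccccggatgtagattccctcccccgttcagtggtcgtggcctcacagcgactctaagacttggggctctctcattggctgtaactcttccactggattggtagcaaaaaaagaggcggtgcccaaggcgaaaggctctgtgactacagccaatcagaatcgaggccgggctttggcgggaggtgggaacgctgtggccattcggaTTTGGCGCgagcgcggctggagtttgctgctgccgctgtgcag
Both strands were searched, and the marked motifs do not overlap one another. EGR1 holds 2 CArG boxes, which begin at -105 and -83 from the start, and CDC20 holds 2 CCAAT boxes and 2 TTTGAA motifs, while CCNB1 holds 2 CCAAT boxes and no TTTGAA. The promoters of RRM2, BUB1, KIF20A and PLK1 were searched as well and are not shown. RRM2 held none of TTTGGCGC, TTTCGCGC and TTTCCCGC. BUB1 and KIF20A each held 2 CCAAT boxes and no TTTGAA, and PLK1 held 1 of each motif. A match describes the letters in this window and is not evidence that a factor was bound there.

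Among 35116 RefSeq promoters, 34.6% held CCAAT and 15.2% TTTGAA. Of 40 matched promoters of mitosis and G2/M genes, 32 held CCAAT (80.0%) and 30 held TTTGAA (75.0%). TTTGGCGC was in 9 of 43 DNA replication and G1/S promoters (20.9%), against 0.652% of all promoters. TGATGNAA was in 7 of 34 promoters of the ATF4 list (20.6%), against 3.62% of all, and a CArG box was in 2 of 22 immediate early promoters (9.09%), against 1.29% of all. CACGTG, the E-box that c-Myc binds with MAX, was in 12.5% of the mitosis and G2/M promoters, 11.6% of the DNA replication and G1/S promoters and 7.26% of all promoters.

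**Figure D3:**
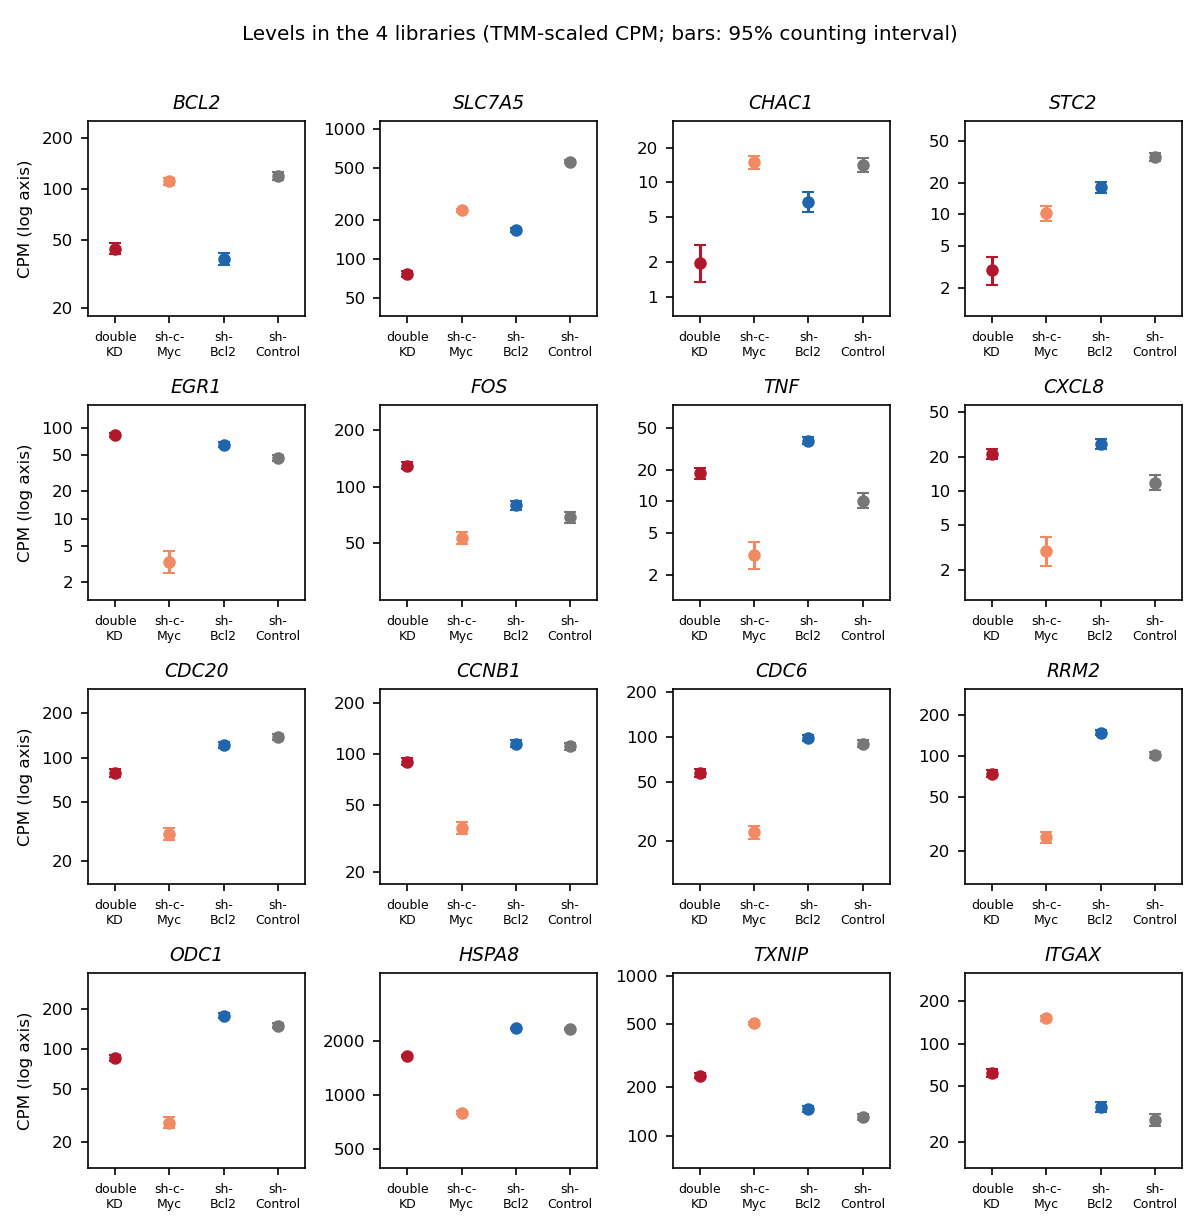
Level of 16 genes in each of the 4 libraries (TMM-scaled CPM, log axis), listed as double knockdown, sh-c-Myc, sh-Bcl2 and shControl; each point is 1 library and its bar the 95% counting interval. BCL2 and SLC7A5 are lower in the first library of each pair, EGR1 is low in sh-c-Myc alone (3.34 CPM), and the cell cycle genes are lowest in sh-c-Myc.

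Immediate early genes are transcribed within minutes of growth factor or stress signals through the ERK pathway and serum response factor. Of 26 measured members 5 were called higher (19.2%, against 1.66% of all genes) and 0 lower, with a median log2 ratio of 0.27. EGR1, a zinc finger transcription factor, had 84.5 CPM in the double knockdown (1321 counts) and 3.34 CPM in sh-c-Myc (52 counts), beside 65.2 CPM in sh-Bcl2 and 46.8 CPM in shControl. The ratio was 25.1-fold [19.2 to 34.1], whereas sh-Bcl2 over shControl gave a log2 ratio of 0.48; the log2 ratios of the pairs differed by 4.17 [3.75 to 4.59], where the interval again covers counting error only. The sh-c-Myc library was the one that stood apart, since the other 3 lay within 46.8 to 84.5 CPM.

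FOS, a subunit of the AP-1 transcription factor, had 129 CPM in the double knockdown, 53.2 CPM in sh-c-Myc, 79.3 CPM in sh-Bcl2 and 68.6 CPM in shControl, which is 2.43-fold higher in the double knockdown than in sh-c-Myc [2.24 to 2.64]. Its relative FOSB had 3.33 CPM and 1.22 CPM in the compared libraries, and EGR2, a paralogue of EGR1, had 2.81 CPM and 1.35 CPM. IER3, a stress response gene, had 1.28 CPM in the double knockdown and 0.257 CPM in sh-c-Myc, and so entered the gene set only through the library in which it was high; 26.5% of its exonic bases overlap another gene. Several family members lay on the other side of 0 without being called. JUND had 475 CPM in the double knockdown and 666 CPM in sh-c-Myc (log2 ratio -0.49), FOSL2 459 CPM and 584 CPM (-0.35), and JUN 25.1 CPM and 29.9 CPM (-0.25). The list therefore did not move as one, and the AP-1 genes were split between both directions. KLF10, a TGF-beta inducible repressor, is also a member. It showed like ratios in both pairs, with 79.1 CPM in the double knockdown and 42.3 CPM in sh-c-Myc (log2 ratio 0.90) and 77.0 CPM in sh-Bcl2 and 39.9 CPM in shControl (0.95), both below the 2-fold rule.

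Of 18 measured feedback genes of the ERK pathway, 2 were called higher and 1 lower (16.7% called, against 6.41% of all genes). With total counts or upper quartile factors 0 were higher and 1 lower. The phosphatase DUSP2, which inactivates ERK in the nucleus, had 48.6 CPM in the double knockdown, 23.9 CPM in sh-c-Myc, 53.05 CPM in sh-Bcl2 and 33.1 CPM in shControl. DUSP1, an immediate early phosphatase of the same family, had 8.64 CPM and 4.10 CPM in the compared libraries. The lower gene was SPRED3, an inhibitor of RAS signalling, with 1.09 CPM in the double knockdown and 2.95 CPM in sh-c-Myc. The classic ERK output genes DUSP6 (68.8 CPM and 51.7 CPM) and SPRY2 (52.8 CPM and 43.2 CPM) were not called, and reads of DUSP6 are uncertain because 40.5% of its exonic bases overlap another gene.

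A small set of inflammatory genes was higher in the double knockdown. Of 23 measured NF-kB and cytokine genes 5 were higher and 1 lower (26.1% called, against 6.41% of all genes). The median log2 ratio was 0.04, so most of the list stayed near 0. CXCL8, the neutrophil chemokine interleukin 8, had 21.4 CPM in the double knockdown and 2.95 CPM in sh-c-Myc, beside 26.2 CPM in sh-Bcl2 and 11.9 CPM in shControl. TNF, the cytokine tumour necrosis factor, had 18.5 CPM in the double knockdown, 3.08 CPM in sh-c-Myc, 38.1 CPM in sh-Bcl2 and 10.2 CPM in shControl. SPP1, the secreted matrix protein osteopontin made by macrophages, had 10.0 CPM, 2.12 CPM, 9.84 CPM and 1.35 CPM in that order. All 3 were called higher in both pairs, and for each the libraries with the Bcl-2 hairpin lay above their own partners. The ratios over sh-c-Myc were 7.20-fold [5.33 to 10.1] for CXCL8, 5.95-fold [4.41 to 8.33] for TNF and 4.69-fold [3.24 to 7.13] for SPP1. The other 2 higher genes were IER3, given above, and the chemokine gene CXCL2, with 1.41 CPM in the double knockdown and 0.257 CPM in sh-c-Myc, which likewise passed the filter only through the double knockdown. IL1B, which encodes interleukin 1 beta, had 7.80 CPM and 4.36 CPM in the compared libraries, and 7.07 CPM in sh-Bcl2 and 3.90 CPM in shControl, short of 2-fold in both pairs. The NF-kB subunits and inhibitors did not follow these genes. RELA had 93.4 CPM in the double knockdown and 90.6 CPM in sh-c-Myc, NFKB1 93.1 CPM and 84.3 CPM, NFKBIA 19.3 CPM and 21.9 CPM, and TNFAIP3, the inhibitor A20, 62.8 CPM and 59.6 CPM.

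Among genes of amino acid supply and the integrated stress response, 6 of 36 were called lower (16.7%, against 4.75% of all genes). This response raises translation of the transcription factor ATF4, which switches on amino acid transporters, synthesis enzymes and stress effectors. None was called higher, the median log2 ratio was -0.33, and 29 lay below 0 and 7 above. In the second pair 0 of 38 were higher and 7 lower, with a median of -0.54, where 2.1% of all genes were called lower. For the 6 lower members the double knockdown was the lowest of the 4 libraries, while the order of the other 3 varied.

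SLC7A5, the large neutral amino acid transporter LAT1, had 76.2 CPM in the double knockdown, 237 CPM in sh-c-Myc, 167 CPM in sh-Bcl2 and 564 CPM in shControl. It was 3.10-fold lower in the double knockdown than in sh-c-Myc [2.91 to 3.32], and its log2 ratios in the pairs, -1.63 and -1.76, differed by 0.12 [0.01 to 0.24]. CHAC1, a glutathione-degrading enzyme induced by ATF4, had 1.98 CPM in the double knockdown, 15.1 CPM in sh-c-Myc, 6.74 CPM in sh-Bcl2 and 14.3 CPM in shControl. That is 7.50-fold lower than in sh-c-Myc [5.21 to 11.4], and the difference between the pairs, -1.83 on the log2 scale [-2.46 to -1.19], left out 0. STC2, the secreted glycoprotein stanniocalcin 2, had 2.94 CPM in the double knockdown and 10.3 CPM in sh-c-Myc, beside 18.2 CPM in sh-Bcl2 and 35.1 CPM in shControl. SESN2, a leucine sensor that restrains mTORC1, had 28.2 CPM and 60.9 CPM in the compared libraries, and 35.7 CPM and 61.6 CPM in sh-Bcl2 and shControl. CBS, the first enzyme of transsulphuration, had 2.94 CPM in the double knockdown and 6.93 CPM in sh-c-Myc.

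ASNS, asparagine synthetase, had 0.640 CPM in the double knockdown, 3.27 CPM in sh-c-Myc, 1.72 CPM in sh-Bcl2 and 4.54 CPM in shControl, but 44.6% of its exonic bases overlap another gene, so its counts are uncertain. In the comparison ASNS passed the filter only through sh-c-Myc. The regulators themselves were not called. In the comparison, ATF4 had 250.1 CPM in the double knockdown and 314 CPM in sh-c-Myc (log2 ratio -0.33), beside 319 CPM in sh-Bcl2 and 581 CPM in shControl (-0.86). DDIT3, the stress factor CHOP, had 4.93 CPM and 5.77 CPM in the compared libraries, and in the second pair it was called lower, at 2.91 CPM in sh-Bcl2 and 7.24 CPM in shControl. Genes of serine synthesis were not called, with PHGDH at 83.9 CPM in the double knockdown and 110.4 CPM in sh-c-Myc and PSAT1 at 91.7 CPM and 119.9 CPM. A separate list of the unfolded protein response of the endoplasmic reticulum had 0 of 27 members called and a median on the other side of 0 (0.25). Its chaperones HSPA5, or BiP (417 CPM in the double knockdown and 280.1 CPM in sh-c-Myc), and HSP90B1 (995 CPM and 666 CPM) were both above the level of sh-c-Myc.

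Most cell cycle genes had log2 ratios above 0, and some passed the 2-fold rule, while the second pair showed no call in these lists. In the list of DNA replication and G1/S, 9 of 52 were called higher and 0 lower, and all 52 had a log2 ratio above 0 (median 0.75). Of 49 mitosis and G2/M genes, 12 were higher and 0 lower, and 47 lay above 0 (median 0.87). Of all 13362 genes tested, 7107 lay above 0 and 1.66% were called higher. Both lists were chosen with earlier results of these data known. Total counts and upper quartile factors left 6 higher in each list, and the mitosis and G2/M count was 7 with a trend in GC content and length removed. In sh-Bcl2 against shControl 0 of either list was called, and the medians were 0.02 and -0.01. After removal of a trend in GC content and length, the medians of the double knockdown over sh-c-Myc were 0.69 and 0.75. Both libraries with the c-Myc hairpin stood below shControl, which these ratios share: the median log2 ratio of DNA replication and G1/S genes to shControl was -0.66 in the double knockdown and -1.36 in sh-c-Myc, and that of mitosis and G2/M genes -0.36 and -1.18. Summed over the mitosis and G2/M list, levels were 4760 CPM in the double knockdown, 2780 CPM in sh-c-Myc, 6050 CPM in sh-Bcl2 and 5940 CPM in shControl.

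For most of the single genes given here the double knockdown lay between sh-c-Myc and the libraries without the c-Myc hairpin. CDC20, the activator of the anaphase-promoting complex, had 79.0 CPM in the double knockdown, 30.7 CPM in sh-c-Myc, 122 CPM in sh-Bcl2 and 138 CPM in shControl. CCNB1, the mitotic cyclin B1, had 90.4 CPM, 36.6 CPM, 115.6 CPM and 111.6 CPM in that order. BUB1, a kinase of the spindle checkpoint, had 126 CPM in the double knockdown and 56.0 CPM in sh-c-Myc. Their ratios over sh-c-Myc were 2.57-fold [2.31 to 2.86], 2.47-fold [2.24 to 2.73] and 2.25-fold [2.08 to 2.44]. CENPE, a kinetochore motor, was 2.30-fold higher [2.06 to 2.57], and at 68.4 CPM in the double knockdown it stood above its 60.2 CPM in shControl, and TTK, the checkpoint kinase MPS1, 2.24-fold [1.99 to 2.52]. The remaining called members were KIF18A, MAD2L1, KIF23, CDC25C, PLK1, CENPM and KIF20A, each between 1.01 and 1.23 on the log2 scale. FOXM1, a transcription factor of the late cell cycle, had a log2 ratio of 0.06. SKA3, a kinetochore component outside the list, had 87.7 CPM in the double knockdown, 34.5 CPM in sh-c-Myc, 151 CPM in sh-Bcl2 and 136 CPM in shControl.

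Among replication genes, CDC6, which loads the MCM helicase onto origins, had 57.4 CPM in the double knockdown, 23.0 CPM in sh-c-Myc, 98.0 CPM in sh-Bcl2 and 89.9 CPM in shControl. MCM4, a subunit of that helicase, had 516 CPM, 249 CPM, 952 CPM and 882 CPM in that order. RRM2, the regulated subunit of ribonucleotide reductase, had 74.0 CPM in the double knockdown and 25.1 CPM in sh-c-Myc, with 20.2% of its exonic bases shared with a noncoding gene. The ratios were 2.49-fold [2.20 to 2.83], 2.07-fold [1.99 to 2.15] and 2.94-fold [2.62 to 3.31]. With total counts MCM4 fell short of the rule (log2 ratio 0.95, against 1.05 with TMM), as did UHRF1 (0.93, against 1.03). CCNE1, the G1/S cyclin E1, had 11.8 CPM in the double knockdown and 5.07 CPM in sh-c-Myc, UHRF1, which maintains DNA methylation, 180.3 CPM and 88.4 CPM, and DSCC1, a clamp loader subunit, 33.6 CPM and 14.1 CPM. The other called members were GINS1, GINS2 and CCNE2. POLA2, a subunit of the primase complex, had the lowest ratio of the list (0.12). Cyclin-dependent kinase inhibitors were not called: CDKN1A, the p53 target p21, had 310.1 CPM in the double knockdown and 373 CPM in sh-c-Myc, and CDKN1B, or p27, 98.2 CPM and 99.7 CPM.

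Of 11 measured replication-dependent histone genes 0 were higher and 2 lower (18.2%, against 4.75% of all genes). Of the 11, 10 lay below 0, and the median log2 ratio was -0.69. Of all genes with a mean below 2 CPM 22.9% were lower, with a median of -0.46. From 2 to 10 CPM, where HIST1H4H lay, 7.73% were lower, with a median of -0.16. Total counts and upper quartile factors gave 4 lower. HIST1H4H had 2.11 CPM in the double knockdown and 5.07 CPM in sh-c-Myc, against 0.661 CPM in sh-Bcl2 and 0.639 CPM in shControl, and HIST1H2BD, which passed the filter only through sh-c-Myc, had 0.320 CPM in the double knockdown and 1.80 CPM in sh-c-Myc. Summed levels of the list were 38.3 CPM in the double knockdown, 57.0 CPM in sh-c-Myc, 19.4 CPM in sh-Bcl2 and 16.8 CPM in shControl. These levels are low, and 8 of 19 listed genes in the table stood below 1 CPM in both compared libraries.

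Growth genes lay on the same side as the cell cycle genes, mostly below the 2-fold rule. In the list of nucleotide, one-carbon and polyamine synthesis 4 of 36 were higher (11.1%, against 1.66% of all genes) and 0 lower (median 0.51). Total counts, upper quartile factors and trend removal each left 2 higher. ODC1, the rate-limiting enzyme of polyamine synthesis, had 85.7 CPM in the double knockdown, 27.8 CPM in sh-c-Myc, 179 CPM in sh-Bcl2 and 149.6 CPM in shControl, which is 3.08-fold higher than in sh-c-Myc [2.77 to 3.45]. PAICS, a bifunctional purine synthesis enzyme, had 184 CPM, 90.6 CPM, 452 CPM and 443 CPM in that order, and its log2 ratio of 1.02 was 0.92 with total counts. The other 2 were RRM2 and NME1, a nucleoside diphosphate kinase with 4.48 CPM in the double knockdown and 2.18 CPM in sh-c-Myc. SLC29A1, the equilibrative nucleoside transporter that also carries cytarabine into cells, stood outside the list and had 33.1 CPM in the double knockdown, 12.1 CPM in sh-c-Myc, 151 CPM in sh-Bcl2 and 175 CPM in shControl.

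Ribosome biogenesis genes had 3 of 59 called higher (5.08%, against 1.66% of all genes) and 0 lower. Of the 59, 58 lay above 0, and the median was 0.50, against -0.03 in the second pair. Total counts and upper quartile factors each left 1 called. MRTO4, an assembly factor of the large subunit stalk, had 55.4 CPM in the double knockdown, 25.3 CPM in sh-c-Myc, 124 CPM in sh-Bcl2 and 115 CPM in shControl. NIP7 (40.4 CPM and 19.3 CPM in the compared libraries, with 20.2% of exonic bases shared) and PWP2 (13.1 CPM and 6.35 CPM) were the other 2. Of 79 cytosolic ribosomal protein genes 0 were called, and the median was 0.19. In the second pair 3 of 79 were lower, where 2.1% of all genes were, and the median was -0.27. Their summed level was 61200 CPM in the double knockdown, 53700 CPM in sh-c-Myc, 74300 CPM in sh-Bcl2 and 95000 CPM in shControl.

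Heat shock and cytosolic chaperone genes had 1 of 25 called higher (4.0%, against 1.66% of all genes) and a median of 0.39. Total counts or upper quartile factors left 0 called. The gene called with TMM was HSPA8, the constitutive HSP70, with 1650.4 CPM in the double knockdown, 795 CPM in sh-c-Myc, 2343 CPM in sh-Bcl2 and 2334 CPM in shControl, or 2.08-fold higher than in sh-c-Myc [2.03 to 2.12]. HSP90AA1, the inducible HSP90, had 1266 CPM in the double knockdown and 729 CPM in sh-c-Myc, and HSPH1, an HSP70 exchange factor, 387 CPM and 219.9 CPM, both short of 2-fold.

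Calls among nuclear genes for mitochondrial proteins stand beside the 1.66% of all genes called higher. In 6 lists that cover import and folding, mitochondrial ribosomes, complex I, complexes II to V, the tricarboxylic acid cycle, and fission, fusion and cristae, the medians were 0.34, 0.26, 0.15, 0.16, 0.24 and 0.23, with 1, 1, 0, 0, 0 and 1 members called higher and 0 lower in each; total counts, upper quartile factors and trend removal each added 1 lower mitochondrial ribosomal protein gene. The measured members numbered 31, 76, 36, 39, 24 and 23 in the same order. Medians of these lists in the second pair were -0.17, -0.11, -0.15, -0.08, -0.08 and 0.05. HSPD1, the mitochondrial chaperonin HSP60, had 516 CPM in the double knockdown, 317 CPM in sh-c-Myc, 1039 CPM in sh-Bcl2 and 1156 CPM in shControl. CYCS, which encodes cytochrome c, the respiratory carrier that is released in apoptosis, had 218 CPM and 147 CPM in the compared libraries and 271 CPM and 322 CPM in sh-Bcl2 and shControl.

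MTFR2, a regulator of mitochondrial fission, was the only called gene of these lists above 10 CPM, with 36.0 CPM in the double knockdown, 15.01 CPM in sh-c-Myc, 49.9 CPM in sh-Bcl2 and 42.5 CPM in shControl. The other 2 called were MRPL53, a mitochondrial ribosomal protein gene of which 45.2% of the exonic bases overlap another gene, and TOMM5, a small subunit of the import pore, at 1.60 CPM in the double knockdown and 0.641 CPM in sh-c-Myc. TOMM5 passed the filter only through the double knockdown. Of 13 mRNAs encoded by the mitochondrial genome 0 were called. MT-ND4, a complex I subunit, had 6995 CPM in the double knockdown, 5658 CPM in sh-c-Myc, 7639 CPM in sh-Bcl2 and 5351 CPM in shControl, and MT-CO1, of complex IV, had 16432 CPM and 16868 CPM in the compared libraries. All genes of the mitochondrial chromosome took 5.73% of counts in the double knockdown and 5.80% in sh-c-Myc.

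The other anti-apoptotic relatives of BCL2 were not called. MCL1, which sequesters BAK and BH3-only proteins, had 463 CPM in the double knockdown and 374 CPM in sh-c-Myc (log2 ratio 0.31), against 357 CPM in both sh-Bcl2 and shControl. BCL2L1, which encodes BCL-XL, had 9.53 CPM in the double knockdown and 10.1 CPM in sh-c-Myc, with 43.0% of its exonic bases shared with another gene. BCL2A1 had 5.95 and 5.90 CPM in the same libraries, while in the second pair it was called higher, at 4.89 CPM in sh-Bcl2 and 1.77 CPM in shControl. None of 9 measured pro-apoptotic family members was called (median log2 ratio 0.19). The 2 with the widest ratios in opposite directions were BBC3, the p53-induced BH3-only gene PUMA, with 6.40 CPM in the double knockdown and 11.1 CPM in sh-c-Myc, and BIK, also a BH3-only gene, with 50.3 CPM and 34.1 CPM in the same order. Of 18 caspases, apoptosome components and inhibitors of apoptosis none was called, and of 24 p53 targets none was called.

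Glycolysis genes had 0 of 23 called higher and 2 lower (8.7% called, against 6.41% of all genes, median 0.13). The lower 2 were ENO2 and ALDOA, both below 2 CPM in each compared library, and 53.5% of ALDOA's exonic bases overlap another gene. Of all genes with a mean below 2 CPM, 22.9% were called lower. LDHA, lactate dehydrogenase A, had 491 CPM in the double knockdown and 297 CPM in sh-c-Myc, with 993 CPM in sh-Bcl2 and 1004 CPM in shControl. TXNIP, which inhibits thioredoxin and glucose uptake, was lower, with 237 CPM in the double knockdown, 506 CPM in sh-c-Myc, 146 CPM in sh-Bcl2 and 131 CPM in shControl. It was 2.14-fold lower than in sh-c-Myc [2.05 to 2.22] and the only called member of 23 antioxidant genes, whose median was 0.28.

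Myeloid markers checked the cell type. Monocyte and macrophage markers summed to 1380 CPM in the double knockdown, 1450 CPM in sh-c-Myc, 604 CPM in sh-Bcl2 and 417 CPM in shControl, and granule genes to 4960 CPM, 4950 CPM, 1710 CPM and 2450 CPM. The step in both sums thus lay between libraries with and without the c-Myc hairpin. Of 16 measured monocyte markers 1 was higher and 1 lower (12.5%, against 6.41% of all genes), with a median of -0.13. In the second pair 3 of 14 were higher, where 2.26% of all genes were, and the median was 0.55. ITGAX, the integrin CD11c, had 62.1 CPM in the double knockdown, 151 CPM in sh-c-Myc, 35.7 CPM in sh-Bcl2 and 28.96 CPM in shControl. LYZ, lysozyme, lay on the other side of 0 at 347 CPM in the double knockdown and 239.6 CPM in sh-c-Myc, and at 91.8 CPM in sh-Bcl2 and 36.1 CPM in shControl, with 34.0% of exonic bases shared. The macrophage scavenger receptor gene CD163 was the higher one, with 1.98 CPM in the double knockdown and 0.577 CPM in sh-c-Myc. It passed the filter only through the double knockdown. None of 7 granule genes and none of 18 HOXA and KMT2A-fusion target genes was called.

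Markers of other blood cells varied in level. Of the markers that the table lists, 1 of 4 erythroid, 3 of 7 megakaryocyte, 2 of 5 B cell, 4 of 6 T and NK cell and 5 of 10 dendritic cell genes reached 1 CPM. The T and NK cell list summed to 461 CPM in the double knockdown and 439 CPM in sh-c-Myc, and the dendritic cell list to 945 CPM and 798 CPM. Of 3 listed fibroblast markers 0 reached 1 CPM, and their sum was 0.704 CPM in the double knockdown and 0.385 CPM in sh-c-Myc. Called among them was GP9, a platelet receptor subunit, at 0.256 CPM in the double knockdown and 1.41 CPM in sh-c-Myc, and of 5 dendritic cell markers LILRA4, at 0.192 CPM and 1.60 CPM, both passing the filter only through sh-c-Myc. NCAM1, or CD56, had 242 CPM and 203 CPM.

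Interferon response genes had 2 of 33 higher and 1 lower (9.09% called, against 6.41% of all genes), with a median of 0.20. The higher 2, IFI44L and OASL, stood at 1.79 CPM and 1.54 CPM in the double knockdown and both at 0.449 CPM in sh-c-Myc, and so passed the filter only through the double knockdown. Of all genes with a mean below 2 CPM, 5.34% were called higher. The lower one was IRF9, a subunit of the interferon-activated factor ISGF3, with 1.79 CPM in the double knockdown and 3.78 CPM in sh-c-Myc. OAS2, an antiviral sensor, had 16.5 CPM in the double knockdown, 8.34 CPM in sh-c-Myc, 5.09 CPM in sh-Bcl2 and 9.51 CPM in shControl, a log2 ratio of 0.98 in the comparison and -0.90 in the second pair. Lysosomal genes (0 of 29 called, median 0.01), mitophagy and autophagy genes (0 of 24, -0.10) and MYC network genes (0 of 11, -0.07) gave no call. Cholesterol and fatty acid synthesis genes had 1 of 28 lower (3.57%, against 4.75% of all genes). It was CYP51A1, at 0.384 CPM in the double knockdown and 1.22 CPM in sh-c-Myc, with 83.2% of its exonic bases shared with another gene. CYP51A1 passed the filter only through sh-c-Myc.

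The strongest lower calls outside these lists were led by genes that stood higher in sh-c-Myc than in every other library. IL12A-AS1, a transcript antisense to the interleukin 12 subunit gene IL12A, had 19.6 CPM in the double knockdown, 60.9 CPM in sh-c-Myc, 21.5 CPM in sh-Bcl2 and 18.7 CPM in shControl. LINC00926, a long noncoding RNA gene, had 17.7 CPM, 50.3 CPM, 7.60 CPM and 8.38 CPM in that order. VENTX, a homeobox transcription factor of myeloid cells, had 13.1 CPM in the double knockdown, 33.0 CPM in sh-c-Myc, 8.32 CPM in sh-Bcl2 and 7.10 CPM in shControl. For all 3 the double knockdown stood nearer to the libraries without the c-Myc hairpin than to sh-c-Myc, and the ratios were 3.10-fold [2.73 to 3.54], 2.84-fold [2.47 to 3.27] and 2.53-fold [2.15 to 2.99] lower than in sh-c-Myc. JDP2, an AP-1 repressor, was the exception in its order, with 7.93 CPM in the double knockdown, 25.1 CPM in sh-c-Myc, 15.9 CPM in sh-Bcl2 and 24.6 CPM in shControl. LINC00599 (101 CPM and 236 CPM in the compared libraries), C3orf80 (37.6 CPM and 95.2 CPM), ARAP3, a GTPase-activating protein (2.94 CPM and 10.4 CPM), ADAM28, a metalloprotease (7.42 CPM and 20.5 CPM), GAS6-AS1 (8.25 CPM and 22.4 CPM) and AC003102.1 (4.09 CPM and 12.1 CPM) completed the lower genes that the rule named. The sources used here do not give the strand setting of the counting, so reads of an antisense gene and of an overlapping partner cannot be told apart.

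Higher genes outside the lists included CHML, a RAB escort protein, with 33.1 CPM in the double knockdown and 12.3 CPM in sh-c-Myc, KDELC2, a glucosyltransferase of the endoplasmic reticulum, with 35.1 CPM and 13.5 CPM, and HMGB3, a chromatin protein of haematopoietic progenitors, with 81.6 CPM and 33.7 CPM. HMGB3 had 82.6 CPM in sh-Bcl2 and 92.1 CPM in shControl, so sh-c-Myc was its only low library.

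The second pair of libraries gave the same hairpin without the c-Myc hairpin. There 289 of 12792 genes were higher (2.26%) and 269 lower (2.1%) in sh-Bcl2. Called higher in both pairs were 17 genes, which is 7.66% of the higher calls in the double knockdown and 5.88% of those in sh-Bcl2. Called lower in both were 37 genes, which is 5.83% and 13.8% of the lower calls. Opposite calls were nearly as many among the lower genes. Of these, 32 were higher in sh-Bcl2, which is 5.04% of the lower calls in the double knockdown and 11.1% of the higher calls in sh-Bcl2. Another 5 genes were higher in the double knockdown and lower in sh-Bcl2. In the second pair 55.9% of the higher calls lay above 0 and 52.0% of the lower calls below 0, while 50.1% of all genes lay above 0. Across the 12508 genes measured in both pairs the log2 ratios had a Spearman's rho of 0.12, and of 0.06 with the GC and length trend removed. Genes share library and depth within a pair, so this is a description.

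Besides CXCL8, TNF and SPP1, the genes higher in both pairs included KCTD12, which modulates GABA-B receptors, with 27.7 CPM in the double knockdown, 12.4 CPM in sh-c-Myc, 19.9 CPM in sh-Bcl2 and 9.51 CPM in shControl. OLR1, the receptor for oxidised low-density lipoprotein, had 3.01 CPM, 0.385 CPM, 1.52 CPM and 0.426 CPM in that order, and CLEC5A, a myeloid C-type lectin, 3.20 CPM, 0.898 CPM, 2.58 CPM and 0.923 CPM. Both passed the filter of each pair only through the library with the Bcl-2 hairpin, in which they were high. PTX3, a secreted pattern recognition protein, had 3.13 CPM in the double knockdown, 1.15 CPM in sh-c-Myc, 2.38 CPM in sh-Bcl2 and 0.923 CPM in shControl. It passed the filter of the second pair only through sh-Bcl2. Lower in both, besides BCL2, SLC7A5, CHAC1 and ASNS, were ELFN2, a synaptic membrane protein gene, with 0.0640 CPM in the double knockdown, 2.50 CPM in sh-c-Myc, 0.264 CPM in sh-Bcl2 and 3.55 CPM in shControl, and ZNF844, a zinc finger gene, with 4.22 CPM, 9.75 CPM, 1.39 CPM and 5.39 CPM. ELFN2 rests on 1 count in the double knockdown, and it passed the filter of each pair only through the library without the Bcl-2 hairpin.

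**Figure D4:**
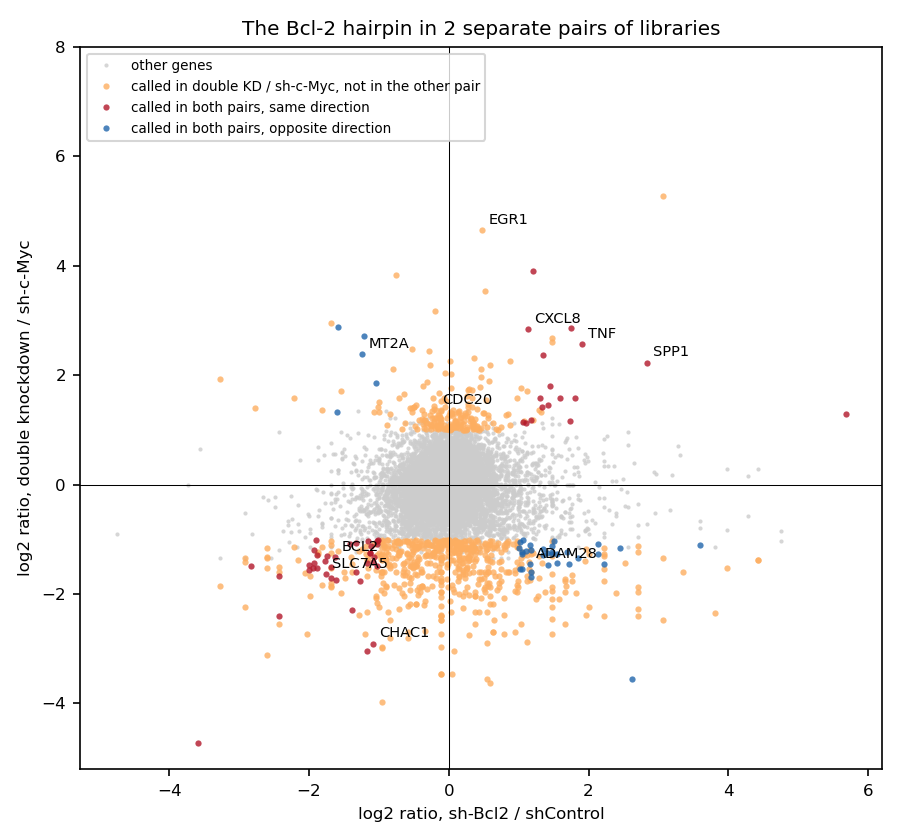
Log2 ratio of the double knockdown over sh-c-Myc (vertical axis) against that of sh-Bcl2 over shControl (horizontal axis), 1 point per gene with at least 1 CPM in the double knockdown or sh-c-Myc; colours mark genes called in the first pair alone (orange), in both pairs in the same direction (red) and in both pairs in opposite directions (blue). BCL2, SLC7A5, TNF and SPP1 lie along the diagonal, while EGR1 (4.65 against 0.48) and CDC20 (1.36 against -0.18) lie near the vertical line through 0.

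Both pairs can be fitted together, with 1 term per hairpin over all 4 libraries and 1 residual degree of freedom. This fit averages the Bcl-2 hairpin over both backgrounds and treats any departure from additivity as error, so genes whose ratios differ between the pairs are not favoured by it. With edgeR's quasi-likelihood test and Benjamini-Hochberg adjustment over 12855 genes, 4 genes had an adjusted p below 0.05 (0.0311%), 2 higher and 2 lower with the Bcl-2 hairpin. They were SLC7A5 (log2 change -1.70, adjusted p = 0.0035), BCL2 (-1.48, adjusted p = 0.0060), TNF (2.21, adjusted p = 0.0060) and SPP1 (2.53, adjusted p = 0.0381), and each showed its direction in both pairs. At an unadjusted p below 0.05 in that test there were 966 of 12855 genes, 472 higher and 494 lower. Without any difference, a share of 0.05 of the tests would be expected to pass that limit. DESeq2 called 3 higher and 10 lower, and limma-voom 1 higher and 2 lower. VEGFA, the vascular growth factor gene, was among those that DESeq2 added and is named here after its values were seen, with 89.9 CPM in the double knockdown, 183 CPM in sh-c-Myc, 96.8 CPM in sh-Bcl2 and 159.8 CPM in shControl.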

How the data were processed

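RNA-seq read counts of 4 MOLM-13 libraries, 1 per group, were taken from the authors' deposited table, which gives counts and FPKM per gene. Per the submitters' processing notes, the authors aligned reads to GRCh38 using HISAT2 and took counts per gene with HTSeq 0.13.5. The sources used here do not give the HISAT2 version, the annotation release or the strand setting. The deposited FPKM values, the authors' counts scaled by gene length and library total, served as an alternative only. Per the labels, libraries were made from 1.5 µg of RNA, and 72 h of doxycycline is stated where the Western blot is described.

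From the counts, TMM factors over 4 libraries (edgeR 4.0.16, R 4.3.3), log2 ratios with a prior count of 0.5 and exact conditional binomial 95% intervals were computed; intervals cover counting error only, and reads are not independent molecules. A depth of 3 counts corresponds to 0.192 CPM in the double knockdown and in sh-c-Myc. Calls needed 2-fold, an interval without equality and 1 CPM in either library. The fit of both hairpins used edgeR's quasi-likelihood test on genes that reached 1 CPM in 2 or more libraries, with DESeq2 1.42.0 and limma 3.58.1 as alternatives, and was tested on simulated data. It recovered 53% of 100 simulated 2-fold changes and 100% of 100 simulated 4-fold changes, so many 2-fold changes can be missed. All 24940 identifiers are in GENCODE 29, which gave gene class, coordinates, exon overlap, GC content and length; trends on GC content and length were removed in 20 bins. The table's symbols include 25 that occur more than once.

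A set of 33 pathway lists and 9 marker lists was written from general knowledge. The members and lists were chosen with earlier results of these data known. The genes named are the targets of both hairpins; at 10 CPM or more, 15 in each direction ranked by whichever interval bound lies closer to equality; up to 5 per list by the same measure; and up to 10 per direction called in both pairs; other called or contrasting list members, given for the make-up of a list, were named after their values were seen.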

Additional observations from a re-analysis of the deposited data

Results flagged for a closer look

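The Bcl-2 hairpin went with opposite calls in its pairs for 5 genes that were higher in the double knockdown than in sh-c-Myc and lower in sh-Bcl2 than in shControl; the difference between the pairs was not tested, since each pair is 1 library against 1. They are MT2A, MT1E, BLNK, STOX1 and AC027097.2, named after their values were seen. All 5 passed the filter of the comparison only through the double knockdown. In the second pair MT1E, BLNK and STOX1 passed it only through shControl. MT2A, a metal-binding metallothionein, had 4.16 CPM in the double knockdown and 0.770 CPM in sh-c-Myc, against 6.41 CPM in sh-Bcl2 and 15.1 CPM in shControl. MT1E, of the same family, had 1.15 CPM in the double knockdown (18 counts) and 0.128 CPM in sh-c-Myc (2 counts), against 0.595 CPM in sh-Bcl2 and 1.85 CPM in shControl.

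Another 32 genes were lower in the double knockdown than in sh-c-Myc and higher in sh-Bcl2 than in shControl, again untested. Many of them passed the filter of the comparison only through sh-c-Myc, in which they were high. Most passed the filter of the second pair only through sh-Bcl2. Of these 32 genes 19 were long noncoding, 9 protein-coding and 4 pseudogenes, and of all 635 lower calls 278 were long noncoding. ADAM28 was the most abundant of the protein-coding ones, with 7.42 CPM in the double knockdown, 20.5 CPM in sh-c-Myc, 7.66 CPM in sh-Bcl2 and 3.41 CPM in shControl. RNASEH2B-AS1, an antisense gene, had 4.41 CPM, 9.04 CPM, 3.10 CPM and 1.06 CPM in that order.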

How the results depend on the processing

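No paired analysis was possible because each group holds 1 library, so the groups share fewer than 2 replicate numbers, and no library could be left out. The main counts were 222 higher and 635 lower, or 25.9% higher. Without a filter on low counts 1003 were lower. At 10 CPM there were 80 higher and 45 lower (64.0% higher); at 1.5-fold 808 and 1231 (39.6%); among protein-coding genes 294 lower (37.3%); with log2 of FPKM + 1 there were 30 and 122; and at a mean of at least 50 counts, chosen after seeing the data, 101 and 132 (43.3%). Total counts gave 153 and 808 (15.9%), upper quartile factors 159 and 790 (16.8%), DESeq2 factors 236 and 614, and removal of the GC and length trend 201 and 633. Genes called in both pairs numbered 45 higher, 140 lower and 112 in opposite directions at 1.5-fold. The fit of both hairpins called 22 higher and 36 lower with no filter, 1 higher with DESeq2 factors in edgeR, 10 lower with DESeq2 and 1 higher with limma-voom. Other thresholds and filters change which genes can be called; beyond that, the cause was not tested. BCL2's log2 ratio ranged from -1.42 to -1.22, and none of 57 named log2 ratios changed sign, though 40 moved beyond their counting interval with FPKM, 7 with total counts, 4 with upper quartile factors and 5 with trend removal. The number of members called moved by over 1.5 times in 9, 8 and 4 of 42 lists under the last 3 settings. Of the 57 named ratios, those of DUSP2, HSPA8, MCM4, UHRF1, PAICS and NIP7 passed 2-fold with TMM but not with total counts. DUSP1, outside the 57, also lost its call with total counts. Low counts limit single genes below 2 CPM most.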

Other observations

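Of the 80 genes called higher at 10 CPM or more, 34 belong to a pathway list, and the others include UNG, BRCA1 and TERT, named here after their values were seen. UNG, the uracil DNA glycosylase, had 49.4 CPM in the double knockdown, 20.1 CPM in sh-c-Myc, 94.8 CPM in sh-Bcl2 and 120.9 CPM in shControl. BRCA1, of homologous recombination, had 91.1 CPM, 45.1 CPM, 134.5 CPM and 112 CPM in that order. TERT, the catalytic subunit of telomerase, had 40.7 CPM in the double knockdown, 17.8 CPM in sh-c-Myc, 39.2 CPM in sh-Bcl2 and 43.3 CPM in shControl, so the double knockdown stood at the level of both libraries without the c-Myc hairpin. Among lower genes, PRAM1, a myeloid adaptor protein, had 119.2 CPM in the double knockdown, 259 CPM in sh-c-Myc, 55.4 CPM in sh-Bcl2 and 48.9 CPM in shControl.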
